A study of Mus musculus with 12 samples.

Results

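Genes of fatty acid synthesis, desaturation and elongation, and glycerolipid assembly were examined in mLTC-1, a mouse cell line of immortalized Leydig cells. Leydig cells make the androgens of the testis. The set was chosen by gene name, with earlier results of these data known. It holds 33 genes, all of which were among the 26214 gene symbols of the deposited count table. It was split by role into 8 synthesis genes, 8 desaturation and elongation genes and 17 glycerolipid and lipid droplet genes. PolyA RNA was profiled in 6 control libraries, from cells given the DMSO vehicle, and 6 libraries from cells given 100 µM of the nitrophenyl compound MSNBA. Both groups were held for 24 h in RPMI medium with fetal bovine serum. In the series, MSNBA stands for inhibition of Glut5, which carries fructose into cells.

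Cells make fatty acids from cytosolic acetyl-CoA, which ATP citrate lyase cuts from citrate and acetyl-CoA synthetase makes from acetate. Acetyl-CoA carboxylase turns it into malonyl-CoA, fatty acid synthase builds palmitate, elongases lengthen the chain and desaturases place unsaturated bonds in it. Acyl chains are then joined to glycerol to give membrane phospholipids or triglyceride, which is stored in lipid droplets. The transcription factor SREBP1, made from Srebf1, drives many of these genes. In Leydig cells, droplets also hold the cholesterol esters from which steroid hormones are made.

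Total counts ran from 59113 to 234225 in control libraries and from 94179 to 657251 in MSNBA libraries, so that depth differed between the groups. The 33 genes together held 5508 counts in controls and 13979 in MSNBA. The 12 columns of the table stand in an order that can be read as 3 sets of 4, of which the middle set holds controls 2 and 4 with MSNBA 3 and 5. The labels give 2 groups of 6 and were followed, and if they were wrong for these 4 libraries every group difference would change its meaning. Results are therefore also given without them, an alternative chosen after seeing the data. A gene was tested if it passed a filter on low counts, which 23 of the 33 did, among 2614 genes in all. Levels are given as normalized CPM, in which the counts of the tested genes set the library total and TMM factors adjust it. They are not scaled by gene length and are compared between libraries only. All 7 Leydig cell markers checked were tested, among them Star, Cyp11a1, Cyp17a1 and Insl3. Adipocyte markers, which could accompany droplet genes, came to 17 counts in controls and 24 in MSNBA over 9 genes. Their summed level was 15.6 to 108 CPM per control library and 6.88 to 40.7 CPM per MSNBA library, and Fabp4 had 0 counts in every library. Macrophage markers came to 9 and 18 counts over 6 genes. Hepatocyte markers summed to 159 to 369 CPM in controls and 78.9 to 244 CPM in MSNBA. Among them Alb, the albumin gene, stood at 141 pooled CPM in controls and 58.0 in MSNBA, a log2 difference of -1.20 (edgeR unadjusted p = 0.00242, adjusted p = 0.228). Raw counts of Alb were 76 and 75 at unlike depth, and the part of depth was not tested. Cyp2e1 stood at 65.0 and 61.9 pooled CPM, and Ttr had 0 counts. Apoa1 had 3 and 6 counts, Apob 4 and 3, Serpina1a 0 and 1, and Tat 1 and 0. The part of these lists in the results was not tested. In bulk RNA, fewer cells of a type and less RNA per cell cannot be told apart. Nothing in the labels tells separate cultures from repeat libraries, so the p-values reflect library-to-library spread alone, and that spread may be technical.

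Promoter windows, 250 bases before to 50 after the start of a transcript, were available for 28 of the 33 genes and not for Scd1, Scd2, Fads1, Dgat1 and Dgat2 (RefSeq, GRCm38.p6). The windows of Acss2 and Plin2 are shown because these tested genes had the largest fold changes of the set, and that of Fasn because its level is the reference point of fatty acid synthesis. Each is written on the strand of its gene, on chr2:155517793-155518092 for Acss2 (plus strand), chr4:86670010-86670309 for Plin2 (minus strand) and chr11:120824498-120824797 for Fasn (minus strand). Capitals mark matches, on either strand, to the letters CCAAT, which the factor NF-Y binds, and to the E-box CACGTG.
Acss2: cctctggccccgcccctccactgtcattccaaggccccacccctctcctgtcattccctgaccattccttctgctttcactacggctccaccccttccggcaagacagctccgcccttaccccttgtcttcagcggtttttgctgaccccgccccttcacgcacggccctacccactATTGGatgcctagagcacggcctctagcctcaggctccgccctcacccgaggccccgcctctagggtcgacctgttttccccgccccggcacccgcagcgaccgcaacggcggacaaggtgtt
Plin2: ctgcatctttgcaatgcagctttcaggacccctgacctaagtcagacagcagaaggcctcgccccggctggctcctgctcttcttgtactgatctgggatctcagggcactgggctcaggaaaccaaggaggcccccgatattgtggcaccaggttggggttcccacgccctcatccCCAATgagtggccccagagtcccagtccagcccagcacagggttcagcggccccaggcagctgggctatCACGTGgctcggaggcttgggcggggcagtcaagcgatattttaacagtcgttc
Fasn: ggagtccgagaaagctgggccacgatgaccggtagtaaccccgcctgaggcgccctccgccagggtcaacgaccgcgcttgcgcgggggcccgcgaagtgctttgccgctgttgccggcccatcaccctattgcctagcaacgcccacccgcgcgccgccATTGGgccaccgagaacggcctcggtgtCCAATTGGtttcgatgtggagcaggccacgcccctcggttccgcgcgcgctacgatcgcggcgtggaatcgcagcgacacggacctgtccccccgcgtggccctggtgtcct

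CCAAT letters began 73 bases before the start site in Acss2 (as the reverse complement) and 73 bases before it in Plin2. Fasn held 3 such matches, at 90, 62 and 59 bases before the start site, of which those at 62 and 59 share bases. Plin2 also held the E-box, 4 bases before its start site. Over the set, 19 of 28 genes held CCAAT in at least 1 window. By window, 20 of 38 windows of the set (52.6%) held it, against 37.4% of all 32851 windows. The E-box was in 4 of the 38 windows (10.5%) and in 7.15% of all windows, with Elovl5, Lpin2, Mgll and Plin2 as its holders. A sterol regulatory element core, written TCACNCCAC and searched on both strands, was in 1 window of the set, that of Acsl1, and in 1.24% of all windows. These shares describe the letters in these windows and were not tested.

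MSNBA was compared with control to ask how lipid-making genes of the Leydig cell line differ on exposure to the compound. The clearest differences lay with both stearoyl-CoA desaturases, with the acetate-using enzyme Acss2 and with the droplet coat gene Plin2, all higher in MSNBA, and with the monoglyceride lipase Mgll, lower in MSNBA. Beside Acss2 at 0.75 and Plin2 at 0.60, the log2 fold changes of the other 21 tested members lay between -0.30 and 0.40. By edgeR's quasi-likelihood test 0 of the 23 tested members passed an adjusted p of 0.05, and the lowest adjusted p of the set was 0.228, for Scd2. Of all 2614 tested genes, 0.0765% passed. With unadjusted p below 0.05, 4 members lay higher and 1 lay lower in MSNBA, where 4.17% of all tested genes were higher and 4.78% lower. The 4 higher members make 17.4% of the 23 tested and the 1 lower member makes 4.35%. Members were chosen with earlier results of these data known, and these shares were not tested. Log2 fold changes were above 0 for 16 members and below 0 for 7, with a median of 0.087, while 48.5% of all tested genes were above 0, with a median of -0.0082. In none of the 23 were the groups free of overlap, which 0.650% of all tested genes were. Among the 10 members below the filter, the groups did not overlap for Acaca alone. The 0.650% covers tested genes only, and no such share is given for genes below the filter. Without controls 2 and 4 and MSNBA 3 and 5, 0 of 23 passed, and 4 members (Acss2, Scd1, Scd2 and Fads1) were higher and 1 (Mgll) lower at an unadjusted p under 0.05. Of the 2734 genes tested there 3 passed, and 212 had an unadjusted p under 0.05, 114 of them higher (4.17%). In those 8 libraries the log2 difference was 0.52 for Scd2, 0.45 for Scd1, 0.80 for Acss2, 0.55 for Plin2 (unadjusted p = 0.0820) and -0.32 for Mgll by edgeR.

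**Figure D1:**
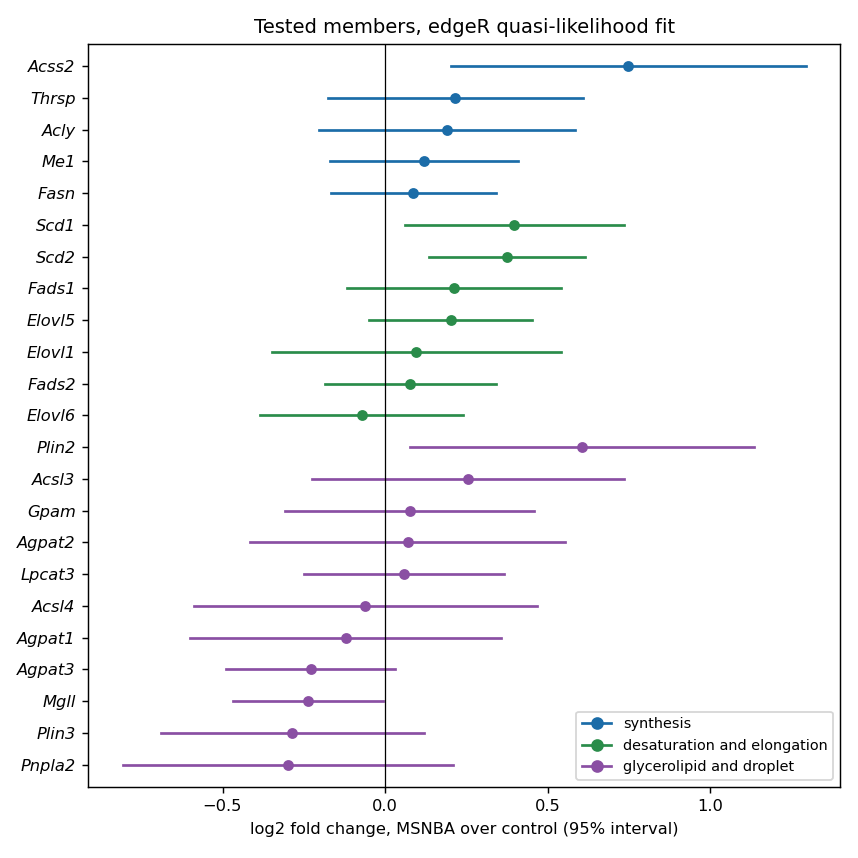
Log2 fold change of MSNBA over control for the 23 tested members (points) with 95% intervals (lines), by role, from the edgeR fit to 6 libraries per group. Intervals of Acss2, Scd1, Scd2 and Plin2 lie above 0 and that of Mgll ends just below 0, from -0.47 to -0.01.

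Among synthesis genes, 5 of 8 were tested, and all 5 had a fold change above 0, with a median of 0.19 on the log2 scale. At an unadjusted p under 0.05, Acss2 was the higher one and 0 were lower. Of all tested genes 4.17% were higher and 4.78% lower, and 48.5% were above 0, with a median of -0.0082.

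Acss2 encodes the cytosolic acetyl-CoA synthetase that lets cells build lipid from acetate (chromosome 2, 155518043 to 155562743). In controls 1 to 6 it measured 74.0, 99.3, 62.4, 32.1, 86.7 and 94.3 CPM. In MSNBA 1 to 6 it measured 125, 127, 72.5, 176, 172 and 157 CPM. Of the MSNBA libraries 5 lay above every control, while MSNBA 3 lay within the control range. On the log2 scale the difference was 0.75 (SE 0.27, edgeR unadjusted p = 0.00846, adjusted p = 0.335), with a 95% interval from 1.15-fold to 2.45-fold. These levels rest on 41 counts in controls and 162 in MSNBA. Exons of Acss2 overlap exons of Gss and Ggt7 on the opposite strand, which had 123 and 22 counts in all. Gss had 28 counts in controls and 95 in MSNBA, and Ggt7 had 7 and 15. Since the counting strand is not stated, reads in the shared stretches cannot be told apart.

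Fasn, the fatty acid synthase itself, differed little (chromosome 11, 120805958 to 120825166). It measured 714, 562, 686, 673, 607 and 626 CPM in controls and 677, 675, 718, 596, 626 and 835 CPM in MSNBA. The groups overlapped almost fully, with MSNBA 6 as the highest library. On the log2 scale it differed by 0.09 (SE 0.13, edgeR adjusted p = 0.876), with 95% limits of 0.892-fold and 1.27-fold.

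Acly, the citrate lyase, measured 260 ± 96.0 CPM over controls and 305 ± 77.5 CPM over MSNBA libraries (SD, n = 6 each), with a log2 fold change of 0.19 (SE 0.19). MSNBA 4 was low among the treated libraries, at 163 CPM against 291 CPM or more in the others. Me1, the malic enzyme that supplies NADPH, had 552 ± 157 and 627 ± 48.6 CPM (SD, n = 6 each), a log2 fold change of 0.12 (SE 0.14). Its controls fell into a low set of controls 2, 4 and 5, at 397 to 417 CPM, and a high set of controls 1, 3 and 6, at 686 to 711 CPM. Controls 2, 4 and 5 were also the shallowest controls, at 77030, 79770 and 59113 counts, with control 3 next at 83983. The part of depth in this split was not tested. All 6 MSNBA libraries, at 574 to 705 CPM, lay between the lowest and the highest control. Thrsp, also called Spot 14 and known as a lipogenic regulator of liver and fat, had 401 ± 147 and 479 ± 103 CPM (SD, n = 6 each). Its control values ran from 182 CPM in control 2 to 629 CPM in control 1, and its log2 fold change was 0.22 (SE 0.19). Without control 1 it was 0.46 (edgeR unadjusted p = 0.0199, adjusted p = 0.318), and without control 2 it was 0.089. With log2 library total in the model the values of Acly, Me1 and Thrsp were -0.034, -0.024 and -0.095. Without controls 2 and 4 and MSNBA 3 and 5 they were -0.012, -0.016 and -0.048, and the median of the 5 tested synthesis genes was -0.012.

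The other synthesis genes were too low to pass the filter. Acaca, which encodes acetyl-CoA carboxylase 1, the step that commits carbon to fatty acids, had 6, 1, 0, 0, 0 and 1 counts in controls 1 to 6. In MSNBA 1 to 6 it had 25, 5, 9, 5, 8 and 6 counts. All 6 MSNBA libraries held Acaca and lay above every control in CPM, and 3 control libraries held none. Those 3, controls 3, 4 and 5, had 83983, 79770 and 59113 counts in total, and every MSNBA library had 94179 or more. The part of depth was not tested, and no share of genes without overlap is given below the filter. Pooled, Acaca measured 14.8 CPM in controls (exact Poisson 95% interval 6.41 to 29.3) and 44.9 CPM in MSNBA (34.1 to 58.0). An edgeR fit without the filter gave a log2 difference of 1.71 (SE 0.51, unadjusted p = 8.71e-04, adjusted p = 0.267), and DESeq2 gave 1.78 (unadjusted p = 0.00875, adjusted p = 0.999). The 2614 genes had a median of 0.14 in that unfiltered edgeR fit. Intervals on pooled counts cover counting error only, not the spread between libraries.

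Acacb, the carboxylase of the mitochondrial surface that restrains fatty acid oxidation, had 14 counts in controls and 25 in MSNBA, or 26.0 and 19.3 pooled CPM. Srebf1 had 35 and 91 counts, or 65.0 CPM (45.2 to 90.3) and 70.4 CPM (56.7 to 86.4), and its intervals overlapped almost fully.

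**Figure D2:**
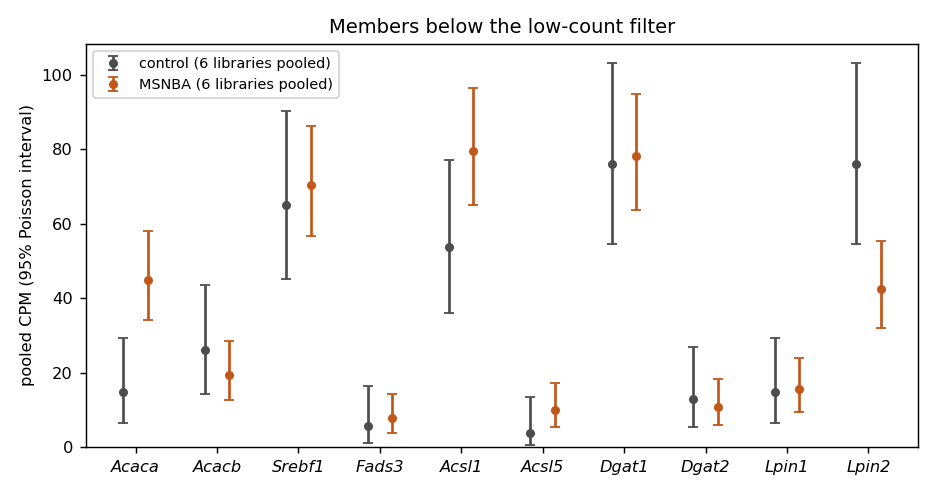
Pooled CPM of the 10 members below the low-count filter in control and MSNBA (points), with exact Poisson 95% intervals that cover counting error only. The intervals of Acaca are apart, at 6.41 to 29.3 and 34.1 to 58.0 CPM, and those of Lpin2 meet at their ends.

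Among desaturation and elongation genes, 7 of 8 were tested, of which 6 had a log2 fold change above 0 and 1 below, with a median of 0.20. At an unadjusted p under 0.05, 2 were higher, both of them stearoyl-CoA desaturases, and 0 were lower. The shares over all tested genes were 4.17% higher and 4.78% lower, with 48.5% above 0.

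Scd2 and Scd1 encode the enzymes that turn saturated stearate and palmitate into oleate and palmitoleate, the main monounsaturated chains of triglyceride and membranes. They lie near each other on chromosome 19, Scd2 from 44293676 to 44306864 and Scd1 from 44394450 to 44407709, with Scd4 between them. Scd2 measured 1539, 1423, 967, 1716, 1127 and 1672 CPM in controls 1 to 6. In MSNBA 1 to 6 it measured 1972, 1688, 1570, 1992, 1735 and 2147 CPM. Of the MSNBA libraries 4 lay above every control and all 6 above the control median, while controls 3 and 5 were the lowest libraries. On the log2 scale the difference was 0.37 (SE 0.12, edgeR unadjusted p = 0.00295, adjusted p = 0.228), with 95% limits of 1.10-fold and 1.53-fold. It was 0.28 without control 3 and kept an unadjusted p under 0.05 whichever library was left out.

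Scd1 measured 301, 215, 328, 369, 173 and 249 CPM in controls and 396, 338, 370, 393, 337 and 350 CPM in MSNBA. The treated libraries were tightly grouped above 5 of the 6 controls, with control 4 inside their range. The log2 difference of 0.40 (SE 0.17, edgeR unadjusted p = 0.0217, adjusted p = 0.423) had 95% limits of 1.04-fold and 1.66-fold. Without control 5, control 6 or MSNBA 1 its unadjusted p was above 0.05, with 0.33 as the lowest value, without control 5. With log2 library total in the model both desaturases stood at 0.32 (edgeR unadjusted p = 0.0161 for Scd2 and 0.101 for Scd1). Scd3 and Scd4, the other members of the family in mouse, were almost absent, Scd3 with 1 count in controls and 5 in MSNBA and Scd4 with 3 in each group. Reads shared among such paralogs would depend on how the authors assigned them.

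**Figure D3:**
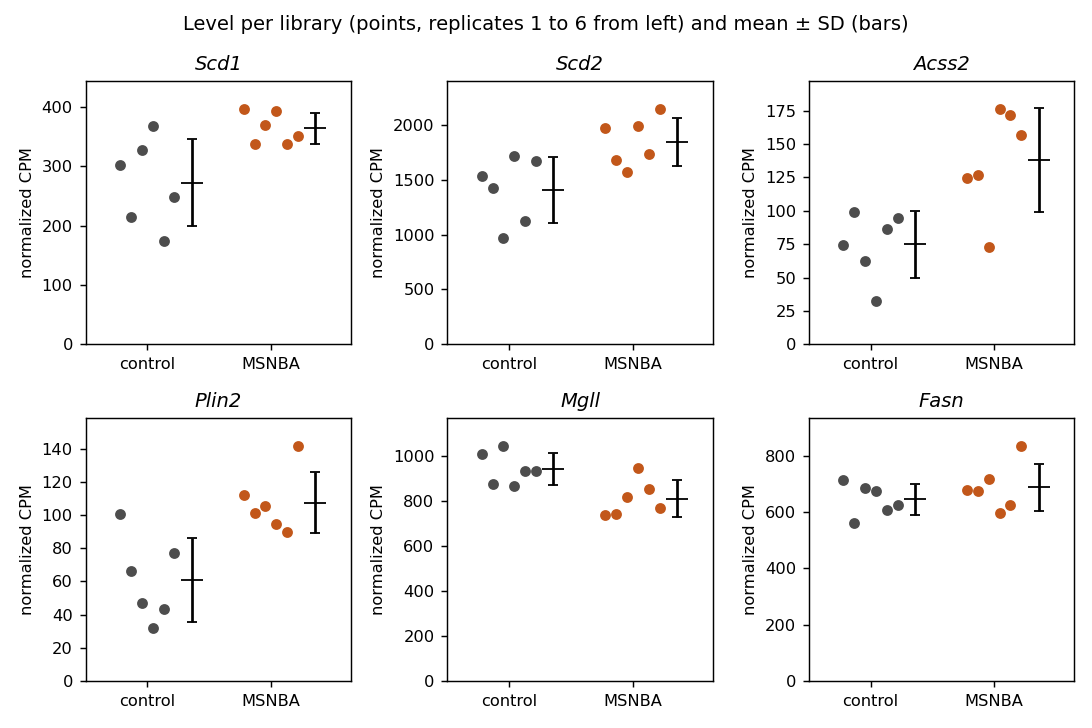
Normalized CPM of 6 genes in each library (points, replicates 1 to 6 from left) with mean ± SD (bars, n = 6 per group), each axis starting at 0. Scd1, Scd2, Acss2 and Plin2 lie higher in MSNBA with some overlap, Mgll lies lower (811 against 944 CPM on average) and the values of Fasn overlap.

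The share of Scd1 in the pair is a ratio within a library and does not depend on scaling. Scd1 made up 16.5% ± 4.75 of Scd1 plus Scd2 counts in controls and 16.5% ± 1.60 in MSNBA (SD, n = 6 each). Its share ran from 12.9% to 25.3% over controls and from 14.0% to 19.1% over MSNBA libraries. The highest share, in control 3, rested on 21 Scd1 counts, with an exact binomial 95% interval from 16.4% to 36.0%. Across the 12 libraries the log2 levels of both genes had Pearson r = 0.57 (permutation p = 0.0832) and Spearman rho = 0.71 (permutation p = 0.0115). The permutations ran over all 12 libraries without regard to group, so these values take in the difference between the groups. The relation of Scd1 and Scd2 was the sole one computed, so no adjustment applies. Without controls 2 and 5, which lay farthest from the median of Scd1, r was 0.31 (permutation p = 0.317) and rho 0.59 (permutation p = 0.0791). Within groups r was 0.24 in controls and 0.34 in MSNBA (exact permutation p = 0.614 and 0.508). Spearman rho there was 0.37 and 0.26 (exact permutation p = 0.497 and 0.658). The 6 libraries of a group are too few to tell these values from the pooled ones. Leaving out control 3 alone gave r = 0.84 (permutation p = 0.00214), and leaving out control 5 alone gave 0.37. Spearman rho lay between 0.66 and 0.80 with any 1 library left out (permutation p from 0.00498 to 0.0310).

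The polyunsaturated branch lies on chromosome 19 too, in the Fads cluster. Fads1, the delta-5 desaturase gene, measured 344 ± 94.0 CPM over controls and 405 ± 45.7 CPM over MSNBA libraries (SD, n = 6 each), a log2 fold change of 0.21 (SE 0.16). Fads2, the delta-6 desaturase gene, had 1080 ± 218 and 1148 ± 231 CPM (SD, n = 6 each), with a log2 fold change of 0.08 (SE 0.13). Its highest library was control 2, at 1506 CPM, and its lowest was MSNBA 5, at 840 CPM. Fads3 had 3 and 10 counts.

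Of the elongase genes, Elovl5, which lengthens polyunsaturated chains, measured 862, 695, 702, 754, 607 and 926 CPM in controls. Its MSNBA levels were 963, 953, 863, 786, 723 and 1036 CPM, and 3 of them lay above every control. The log2 difference was 0.20 (SE 0.12, edgeR adjusted p = 0.629), with a 95% interval from 0.966-fold to 1.37-fold. Elovl6, which carries palmitate on to stearate, had 458 ± 107 and 447 ± 76.7 CPM (SD, n = 6 each) and a log2 fold change of -0.07 (SE 0.15). The value was 0.072 in the unfiltered fit, 0.080 with library total in the model and 0.076 without controls 2 and 4. Elovl1, an elongase of very long chains, had 141 ± 30.3 and 153 ± 32.1 CPM (SD, n = 6 each), with a log2 fold change of 0.10 (SE 0.22). Exons of Elovl1 overlap those of the cell cycle gene Cdc20 on the opposite strand, which had 307 counts in all.

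**Figure D4:**
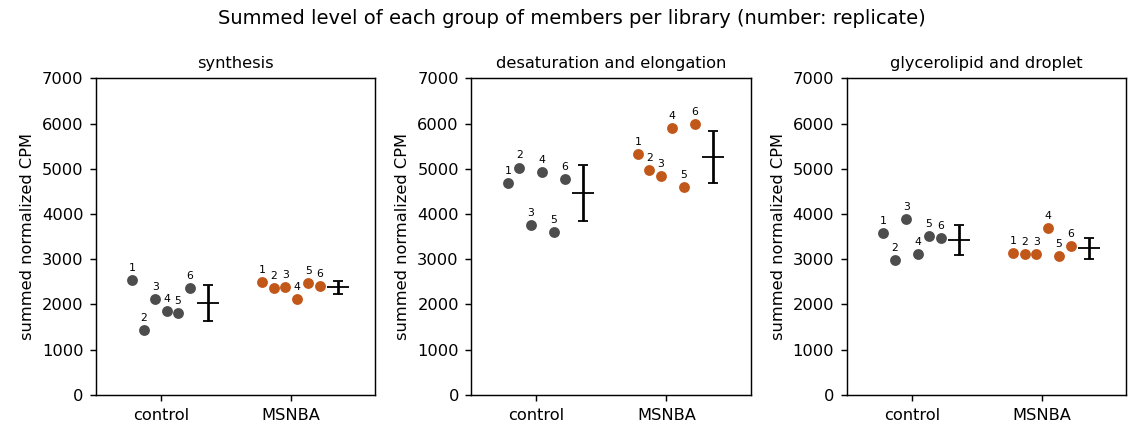
Summed normalized CPM of the 8 synthesis, 8 desaturation and elongation, and 17 glycerolipid and droplet genes in each library (points, numbered by replicate) with mean ± SD (bars, n = 6 per group). The desaturation and elongation sums run from 3596 to 5029 CPM in controls and from 4599 to 5994 CPM in MSNBA, and all groups overlap.

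Summed over its genes, synthesis measured 1439 to 2533 CPM in controls, with a median of 1991 CPM, and 2114 to 2501 CPM in MSNBA, with a median of 2406 CPM. Control 2 was the lowest library. Desaturation and elongation had medians of 4729 and 5149 CPM, and MSNBA 4 and 6 were above the other libraries. Glycerolipid and droplet genes had medians of 3486 CPM in controls and 3132 CPM in MSNBA, with ranges of 2978 to 3883 and 3077 to 3686 CPM. Sums weigh toward the genes with most counts and were not tested.

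Among glycerolipid and droplet genes, 11 of 17 were tested, with 5 values above 0, 6 below and a median log2 fold change of -0.06. At an unadjusted p under 0.05, 1 was higher, Plin2, and 1 was lower, Mgll, beside 4.17% and 4.78% of all tested genes.

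Plin2 encodes perilipin 2, which coats lipid droplets in most cell types (chromosome 4, 86626910 to 86670217). It measured 100, 66.2, 46.8, 32.1, 43.3 and 77.1 CPM in controls 1 to 6. In MSNBA 1 to 6 it measured 112, 101, 105, 94.9, 89.5 and 142 CPM. Control 1 reached into the range of the treated libraries, and the other 5 controls lay below all of them. On the log2 scale it differed by 0.60 (SE 0.26, edgeR unadjusted p = 0.0258, adjusted p = 0.446), with a 95% interval from 1.05-fold to 2.19-fold, on 39 and 141 counts. It was 0.92 without control 1, its unadjusted p was above 0.05 without control 3 or control 4 (0.50 without control 4), and with log2 library total in the model it was 0.43 (unadjusted p = 0.176). Plin3, the perilipin that binds nascent droplets, had 251 ± 94.8 and 207 ± 37.1 CPM (SD, n = 6 each) and a log2 fold change of -0.29 (SE 0.20).

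Mgll encodes monoglyceride lipase, which frees the last acyl chain from glycerol (chromosome 6, 88724412 to 88828360). Its controls measured 1010, 877, 1045, 866, 932 and 934 CPM, and its MSNBA libraries 737, 743, 816, 949, 854 and 768 CPM. Of the MSNBA libraries 5 lay below every control, and MSNBA 4 lay among the controls. The log2 difference was -0.24 (SE 0.11, edgeR unadjusted p = 0.0441, adjusted p = 0.536), with a 95% interval from 0.722-fold to 0.995-fold. It was -0.094 in the unfiltered fit, where all values stood against a median of 0.14. Its unadjusted p stayed under 0.05 in 4 of 12 fits with a library left out, those without control 2, control 4, MSNBA 4 or MSNBA 5. Pnpla2, the adipose triglyceride lipase that opens triglyceride breakdown, had 156 ± 75.0 and 119 ± 22.8 CPM (SD, n = 6 each). Its log2 fold change was -0.30 (SE 0.25), and 0.053 with library total in the model.

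**Figure D5:**
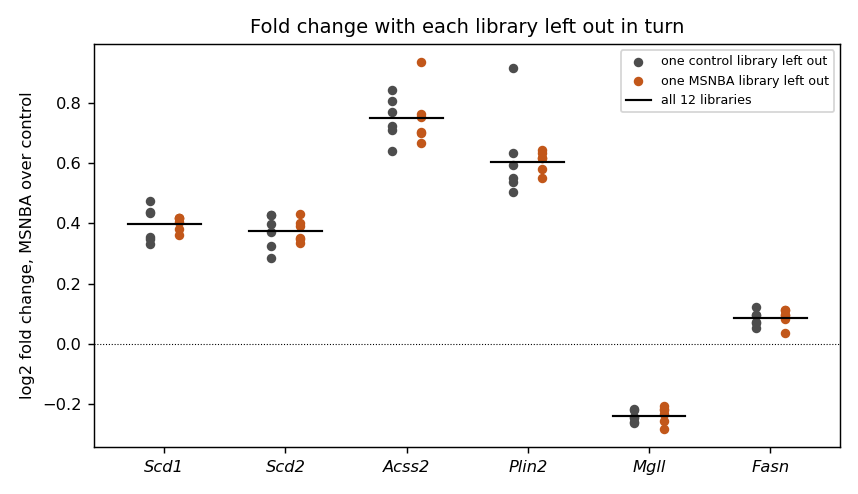
Log2 fold change of 6 genes over all 12 libraries (lines) and with each library left out in turn (points, by the group of the library left out). All points of Scd1, Scd2, Acss2 and Plin2 lie above 0 and all points of Mgll below, and the point of Plin2 at 0.92 leaves out control 1.

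The Agpat genes encode acyltransferases of phosphatidic acid synthesis. Agpat3 measured 640, 579, 686, 561, 563 and 694 CPM in controls and 543, 523, 464, 610, 530 and 574 CPM in MSNBA. Of these MSNBA libraries 4 lay below every control. The log2 difference was -0.23 (SE 0.13, edgeR adjusted p = 0.589), with a 95% interval from 0.713-fold to 1.02-fold. Agpat1 differed by -0.12 on the log2 scale (SE 0.24) and Agpat2 by 0.07 (SE 0.24), with 95% intervals of 0.660-fold to 1.28-fold and 0.750-fold to 1.47-fold. Agpat2 was low in controls 2 and 4, at 49.6 and 64.1 CPM, against 154 to 195 CPM in the other controls, and its value was -0.19 without them. Gpam, the mitochondrial enzyme that starts glycerolipid assembly, had 230 ± 55.7 and 257 ± 66.1 CPM (SD, n = 6 each), with a log2 fold change of 0.08 (SE 0.19). Lpcat3, which loads polyunsaturated chains into phosphatidylcholine, had 445 ± 122 and 470 ± 21.7 CPM (SD, n = 6 each), with a log2 fold change of 0.06 (SE 0.15). Its exons overlap those of Emg1 on the opposite strand, which had 112 counts in all.

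Of the acyl-CoA synthetases, which activate fatty acids for use, Acsl3 had 102 ± 33.4 and 134 ± 23.6 CPM (SD, n = 6 each) and a log2 fold change of 0.25 (SE 0.24). Exons of Acsl3 overlap those of Utp14b on the same strand, which had 17 counts in all. Acsl4, which prefers arachidonate, had 93.2 ± 23.4 and 89.1 ± 33.9 CPM (SD, n = 6 each) and a log2 fold change of -0.06 (SE 0.26), and stood at 0.076 in the unfiltered fit. Acsl1 was below the filter, with 29 counts in controls and 103 in MSNBA, or 53.8 CPM (36.0 to 77.3) and 79.7 CPM (65.0 to 96.6). MSNBA 1 alone held 55 of these counts. Acsl5 had 2 and 13 counts, and its exons overlap those of Zdhhc6 on the opposite strand, which had 36 counts in all.

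The last steps of triglyceride synthesis were thinly covered. Dgat1 had 41 and 101 counts, or 76.1 CPM (54.6 to 103) and 78.1 CPM (63.6 to 94.9), and Dgat2 had 7 and 14 counts. Of the lipins, which make diacylglycerol, Lpin1 had 8 and 20 counts and Lpin2 41 and 55. Pooled, Lpin2 measured 76.1 CPM in controls (54.6 to 103) and 42.6 CPM in MSNBA (32.1 to 55.4). Controls 1 and 3 held 27 of the 41 control counts (12 and 15). In the unfiltered edgeR fit it stood at -0.67 on the log2 scale (SE 0.34, adjusted p = 0.630).

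Another 122 genes of the wider lipid pathway, in 5 lists, were set beside these members, and 36 of them were tested. By edgeR 0 passed over all genes, 1 stood higher and 1 lower with unadjusted p below 0.05, and 22 of 36 values were above 0, with a median log2 fold change of 0.06. The 1 higher and the 1 lower gene each make 2.78% of the 36, below the 4.17% and 4.78% of all tested genes. Of all tested genes 48.5% were above 0. The higher gene was Insig1, which holds SREBP precursors in the endoplasmic reticulum and is itself an SREBP target. It measured 254, 298, 156, 208, 303 and 197 CPM in controls and 363, 363, 377, 312, 207 and 313 CPM in MSNBA. All MSNBA libraries but MSNBA 5 lay above every control, and the log2 difference was 0.49 (SE 0.19, edgeR unadjusted p = 0.0112, adjusted p = 0.373). The lower gene was Cyb5r3, the reductase that passes electrons to cytochrome b5 and so to the desaturases, at 493 ± 45.2 and 399 ± 50.2 CPM (SD, n = 6 each). The log2 difference was -0.32 (SE 0.14, edgeR unadjusted p = 0.0312, adjusted p = 0.466). By list, medians were -0.10 for 8 tested genes of SREBP and lipogenic control, 0.05 for 8 of elongation and desaturation and 0.07 for 9 of uptake, binding and activation. They were 0.12 for 4 genes of phospholipid and glycerolipid assembly and 0.08 for 7 of droplets and lipolysis.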

How the data were processed

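RNA counts in 6 control and 6 MSNBA libraries of mLTC-1 cells were analysed. The authors deposited raw counts per gene symbol in a table of 12 columns, with no normalization. Per the submitters' processing notes, reads were aligned with BWA 0.7.4.4 to mm10. Not given in the sources used here are the counting program, the annotation release and strand. Groups were taken from the labels alone, although the order of the columns can be read as 3 sets of 4.

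Genes were filtered with filterByExpr, scaled by TMM factors and tested with the edgeR robust quasi-likelihood F test (edgeR 4.0.16, limma 3.58.1, DESeq2 1.42.0, R 4.3.3). Two-sided p-values received Benjamini-Hochberg adjustment over the 2614 tested genes, which hold 79.2% of all counts. SEs were taken as the absolute log2 fold change divided by the root of F. The fit was tested on simulated data. Members below the filter are given as pooled counts with exact Poisson intervals at 95%.

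The members, lists and alternatives were chosen with earlier results of these data known. All 33 members are reported. Of 122 other pathway genes, those at an unadjusted p under 0.05 are named. Coordinates and promoters are from RefSeq (GRCm38.p6), exon overlaps from GENCODE M21. Alternatives were other scalings, filters and tests, thinning to 59113 counts, library total as a covariate, a replicate block, and libraries left out, among them, chosen after seeing the data, the 4 of the middle columns.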

Additional observations from a re-analysis of the deposited data

Results flagged for a closer look

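Of 54 groups of 6 libraries checked for a library that lay apart from the other 5, 4 held such a library, where chance gives 2.7. Elovl6 measured 596 CPM in MSNBA 4, and the next MSNBA library had 441 CPM. Control 2 had the highest Fads2 level of its group, 1506 CPM, above 1095 CPM in control 1. Summed over the synthesis genes, MSNBA 4 was the lowest of its group at 2114 CPM, below 2363 CPM in the next library. Summed over the glycerolipid and droplet genes, it was the highest of its group at 3686 CPM, above 3295 CPM in the next. MSNBA 4 was the shallowest treated library, with 94179 counts, and the part of depth in these values was not tested.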

How the results depend on the processing

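Under every alternative tried, 0 members passed the adjusted threshold. DESeq2, over 19576 genes, called 0 genes in all, with 394 at an unadjusted p under 0.05. Scd2 was at an unadjusted p under 0.05 in 12 of 12 alternatives and in all 12 fits that left out a library, and Acss2 in the 10 of 12 alternatives that tested it and in all 12. With a library left out, the log2 fold change ran from 0.28 to 0.43 for Scd2 and from 0.64 to 0.93 for Acss2. Scd1 was at an unadjusted p under 0.05 in 10 of 12 alternatives, Plin2 in 6 of the 10 that tested it and Mgll in 8 of 12, and with a library left out in 9, 10 and 4 of 12 fits. Plin2 missed it with DESeq2 (unadjusted p = 0.0520), with library total, without controls 2 and 4 (unadjusted p = 0.0968) and without controls 2 and 4 and MSNBA 3 and 5. The count of members higher at an unadjusted p under 0.05 was 9 of 33 without the low-count filter, beside 3.81% of 19576 genes. The edgeR adjusted p of Scd2 was 0.0696 there. In that fit the median of the 2614 genes moved up from -0.0082 to 0.14. Its 3.81% also takes in the genes below the filter, so neither the 9 nor the 0.0696 compares directly with the main fit. The count was 2 of 15 with at least 20 counts in 6 libraries (5.61% of all genes tested there) and 1 of 15 after thinning (5.54%). It was 2 of 23 with library total as a covariate (4.59%). With a library left out it was 3 to 5, beside 3.54% to 5.06% of all genes tested there. After thinning, Scd1 stood at 0.44 (unadjusted p = 0.0691). The count of lower members was 0 with upper-quartile factors, without the filter, after thinning and with library total, 2 without controls 2 and 4, and 0 to 1 with a library left out (Plin3 in place of Mgll without control 6). Mgll itself was -0.22 with upper-quartile factors, -0.22 after thinning and -0.21 with library total, against -0.24. The cause was not tested, apart from the fewer members tested in the stricter and thinned fits. With library total in the model the synthesis median was -0.024, and with the stricter filter the glycerolipid and droplet median was -0.24. Of 536 log2 fold changes of members under alternatives, 507 kept their sign and side of the threshold and 29 turned sign, in 10 members. Without the filter, where the median of the tested genes moved from -0.0082 to 0.14, Acsl4 was 0.076, Agpat1 0.020 and Elovl6 0.072. With library total, Acly was -0.034, Me1 -0.024, Thrsp -0.095, Pnpla2 0.053 and Elovl6 0.080. Without controls 2 and 4, Agpat2 was -0.19, Me1 -0.044 and Elovl6 0.076. Without controls 2 and 4 and MSNBA 3 and 5, Acly was -0.012, Acsl4 0.011, Agpat2 -0.28, Elovl6 0.099, Me1 -0.016 and Thrsp -0.048. After thinning, Lpcat3 was -0.034. With a library left out, values ran from -0.26 to 0.036 for Acsl4, -0.26 to 0.0027 for Agpat1, -0.056 to 0.18 for Agpat2, -0.15 to 0.019 for Elovl6, -0.0016 to 0.15 for Gpam and -0.030 to 0.18 for Lpcat3. Pearson r of Scd1 and Scd2 ran from 0.37 (without control 5) to 0.84 (without control 3), where it passed (permutation p = 0.00214), while Spearman rho passed in all 12. Spearman rho did not pass without controls 2 and 5 (0.59, permutation p = 0.0791), nor within either group. With the replicate number as a block, 0 members passed, and 4 stood higher and 1 lower with unadjusted p below 0.05. Of 2614 genes 267 were under 0.05 in that fit, 120 of them higher (4.59%). The log2 fold change of Scd2 was 0.41 there (edgeR adjusted p = 0.0657). Same-numbered libraries had residual correlations from -0.13 to 0.37, over 0.1 in 2 of 6 pairs, so the numbers were not taken to pair libraries. Depth limits the 10 members below the filter: 3 counts over a group are 5.57 CPM in controls and 2.32 CPM in MSNBA.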

Other observations

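Among the wider pathway genes, Acot13, which encodes a mitochondrial acyl-CoA thioesterase, measured 71.6 ± 18.3 CPM over controls and 103 ± 14.4 CPM over MSNBA libraries (SD, n = 6 each). Of the MSNBA libraries 5 lay above every control, and the log2 fold change was 0.40 (SE 0.26, edgeR adjusted p = 0.644). Tecr, the reductase of very long chain elongation, measured 2389 ± 281 and 2129 ± 208 CPM (SD, n = 6 each), with 4 MSNBA libraries below every control and a log2 difference of -0.17 (SE 0.10, edgeR adjusted p = 0.609). Bscl2, which encodes the droplet-forming protein seipin, differed by -0.35 on the log2 scale (SE 0.18, edgeR adjusted p = 0.555). Aacs, of the SREBP and lipogenic control list, was below the filter, with 30 counts in controls and 132 in MSNBA. Pooled, it measured 55.7 and 102 CPM, and all 6 MSNBA libraries lay above every control. How many genes below the filter do so is not given. Acot13, Tecr, Bscl2 and Aacs were picked after their values were seen, and none of the tested ones passed the threshold.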
